A study of Homo sapiens with 4 samples.

Results

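Cytosolic ribosomal proteins are the protein subunits of the ribosome that translates nuclear messages. The members were the single gene symbols of the array annotation that begin with RPL or RPS, or are RPSA, and go on as ribosomal protein names do, with pseudogenes left out and the brightest transcript cluster taken for a gene with several. A transcript cluster is the array's unit for a gene. The rule found 30 genes of the 14232 genes with values: 18 of the large subunit and 12 of the small subunit. The current RefSeq gene table has 84 genes with symbols of this form. The other 54 had no transcript cluster with their symbol alone, among them RPLP0, RPLP1, RPLP2 and RPSA, so the lateral stalk of the large subunit has no values here.

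The study used exon arrays to learn what ADAR does to splicing in established human lines. HepG2 comes from a liver carcinoma and K562 from a myeloid leukaemia that makes erythroid genes, and each was stably transfected with a plasmid. In the arm called ADARkd the plasmid carried an siRNA against ADAR1, the double-stranded RNA deaminase, chosen among several for the best reduction. In the control arm, called SCR, it carried a scrambled siRNA, so all 4 groups are transfected lines (HepG2 SCR, HepG2 ADARkd, K562 SCR and K562 ADARkd). There was 1 array for each line and arm, and the labels do not say whether a line is 1 clone or a pool.

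ADAR stood at 31.0% of its SCR intensity in ADARkd on the arrays labelled HepG2 and at 43.2% in K562. Of 9 measured hepatocyte markers, 0 were kept by the filter on low values (a gene's mean in a line had to reach the median over genes, 5.31 for HepG2 and 5.28 for K562 on the log2 scale), and ALB stood at 3.04 in SCR and 2.97 in ADARkd there. Their summed intensity was 96.4 and 99.3 on these arrays against 111 and 118 in K562. The same arrays had 5 of 8 stromal (fibroblast) markers past the filter, with a summed intensity of 1301 in SCR and 1673 in ADARkd. The sum is set by the brightest genes: of these 5, 2 were at least 1.5-fold higher in ADARkd and 3 lower, with a median of -1.12 (COL3A1 at 7.35 and 4.93, FAP at 6.19 and 4.53). Of the erythroid markers 6 were measured, and K562 kept all 6 and the other arrays 0. The first line is therefore called labelled HepG2, and every direction drawn from it carries that limit. These marker shifts lie beside every knockdown difference on those arrays, and their part in the results was not tested. In arrays of bulk RNA, fewer cells of a type and less RNA per cell cannot be told apart.

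Each ribosome holds 1 copy of most of these proteins, and a proliferating cell makes them in matched amounts. Their messages are among the most abundant of the cell and typically start with a terminal oligopyrimidine (TOP) tract, a run of C and T bases that begins with a C at the transcription start and through which the growth kinase mTORC1 and the binding protein LARP1 control translation. Subunits that are not built into a ribosome are degraded, and a few of them, RPL11 among them, bind MDM2 and so stabilise p53. Mutations in several ribosomal protein genes cause Diamond-Blackfan anaemia, in which red cell precursors fail. Most ribosomal protein genes also have processed pseudogenes of nearly the same sequence, whose transcripts or probes can mix with those of the gene, so array values of single members are uncertain.

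The start sites show a feature that many of the members share, but not all. Promoters from RefSeq (GRCh38.p14) matched 26 of the 30 members, all but RPL3L, RPL8, RPL39L and RPS15A. A C at an annotated start followed by at least 4 bases that were each C or T was present in 19 of these 26 members (73.1%), against 988 of 15843 protein-coding genes (6.24%). The 30 bases around the start are shown for 10 members whose values the results below turn on, 12 bases before the start and 18 from it, with the start base and the unbroken run of C and T that follows it in capitals.
RPL28 (chr19:55385920-55385949, plus strand): cccctcgccttcCTCTTTCCgtctcaggtc
RPS24 (chr10:78033851-78033880, plus strand): cgaatcgtggttCTCTTTTCCTCCTTggct
RPL35 (chr9:124861940-124861969, minus strand): cccgcctacttcCTCTTTCCCTCggagcgg
RPL35A (chr3:197950178-197950207, plus strand): cggggcctcgtcCTTCTCTTaccgccatct
RPL22 (chr1:6199578-6199607, minus strand): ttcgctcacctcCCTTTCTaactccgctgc
RPS21 (chr20:62387091-62387120, plus strand): gactagctgcttCCTTTCTCTCTCgcgcgc
RPS13 (chr11:17077650-17077679, minus strand): cactctcgctctCCTTTCgttgcctgatcg
RPL9 (chr4:39458905-39458934, minus strand): cgtaatgacgacAgacgttctttctttgct
RPS27L (chr15:63157460-63157489, minus strand): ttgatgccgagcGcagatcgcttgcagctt
RPS4X (chrX:72277231-72277260, minus strand): gtctccagccccAatttctacgcgcaccgg
The tract was 14 bases long in RPS24, 12 in RPS21, 11 in RPL35 and 8 in RPL28 and RPL35A. At the annotated starts of RPL9, RPS27L and RPS4X the start base was not a C, and in RPL9 a stretch of C and T bases lies a few bases downstream.

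Other promoter motifs were less common. The letters CCGGAAG, a site form of ETS factors, lay on either strand in 9 of 26 members (34.6%) and in 16.5% of protein-coding genes, in windows from 250 bases before the start to 50 bases from it. The letters AAGATGG, part of the YY1 site, were found on either strand in 1 of 26 (3.85%) against 7.90%, and TATAAA, 40 to 16 bases before the start on the sense strand, in 1 of 26, RPL10L, against 4.19%. The last 3 letters of CCGGAAG are the first 3 of AAGATGG, so matches of these can overlap. The 19 members with the tract had a median ADARkd minus SCR difference of -0.04 (-1.45 to 0.61, log2) on the arrays labelled HepG2, and the 7 without it 0.44 (-0.37 to 1.10). In K562 the medians were 0.10 and 0.02. These groups differ in more than the tract, since the second holds the paralogues RPS27L and RPL10L, and no test was made. In the second group RPL6, RPL10L, RPS4X and RPS29 were under the filter on the arrays labelled HepG2, and its median there is the value of RPL6. RPL4 and RPS29 also have clusters away from their own gene, as described below. The first group holds members under the filter too, among them RPS13 and RPS21, so the 2 medians are uncertain.

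The members' transcript clusters were next set against their own genes, because the annotation can give a cluster the symbol of a gene whose copy lies elsewhere. The platform numbers its clusters along the chromosomes. A cluster was counted as near its own gene if at least 6 of the 10 named clusters numbered next to it belong to genes of the same chromosome within 5 Mb, as 96.9% of all 14404 named clusters did. Of the 30 members 25 passed. For RPL4, RPL14, RPL27A, RPS13 and RPS29, 0 of the 10 neighbours lay on the chromosome of the gene, so these values may come from a copy elsewhere, and whether the probes bind the gene's own message was not tested. RPL14 and RPL27A each had a second, dimmer cluster near the own gene. That of RPL14, a large-subunit protein, stood at 6.39 and 6.36 (SCR and ADARkd, labelled HepG2) and at 6.56 and 6.51 in K562, differences of -0.03 and -0.05, against 0.23 and 0.19 for the brighter cluster. That of RPL27A differed by -0.50 and 0.00, against -0.11 and 0.27. RPS25, a small-subunit protein, also had a second, dimmer cluster, but away from its own gene. It differed by 0.33 (labelled HepG2) and 0.22 (K562), against -0.54 and -0.17 for the brighter cluster near the gene.

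**Figure D1:**
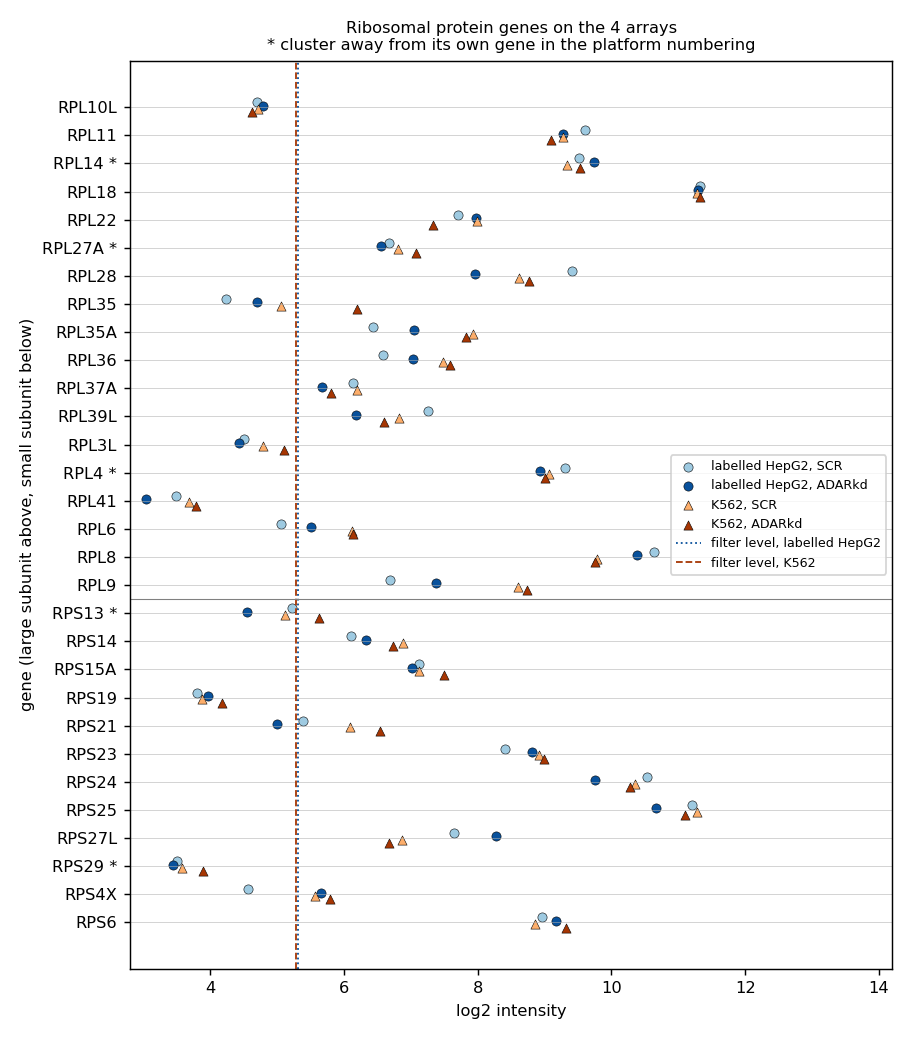
Log2 intensity (x axis) of the 30 ribosomal protein genes (y axis) on the 4 arrays, 1 point per array, with circles for the arrays labelled HepG2, triangles for K562, light fill for SCR and dark fill for ADARkd; vertical lines mark the filter levels of 5.31 and 5.28. RPL28 spans 7.96 to 9.41 with both K562 arrays in between, while RPL18 stays within 11.28 to 11.33 on all 4 arrays; levels of different genes are not comparable.

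On the arrays labelled HepG2 the knockdown arms were compared to ask which subunit messages differed where ADAR was lower. RPL28, a large-subunit protein that budding yeast lacks, and RPL39L, a paralogue of the exit-tunnel protein RPL39 best known from testis, were lower in ADARkd, and so was RPS24, a small-subunit protein whose gene is mutated in Diamond-Blackfan anaemia. RPS4X, the X-linked form of a small-subunit protein, and RPL9, RPS27L and RPL35A were higher. Of the 30 members, 4 were at least 1.5-fold higher and 4 at least 1.5-fold lower (13.3% each way), against 7.43% and 4.87% of all 14232 genes. Among the 20 members kept in this line the counts were 3 and 3 (15%), beside 12.4% and 5.73% of 7116 kept genes. With 1 array per arm these are values with no test.

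RPL28 stood at 9.41 in SCR and 7.96 in ADARkd on the log2 scale, a difference of -1.45, which leaves 36.6% of the SCR intensity. In K562 it stood at 8.61 and 8.77, between its pair of values on the other arrays. It ranked number 48 from the lowest among 7116 kept genes. RPL39L stood at 7.26 and 6.18 (-1.08, or 2.11-fold lower), against 6.82 and 6.61 in K562 (-0.22). It was lower in ADARkd in both lines, on arrays that overlap between the lines.

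RPS24 stood at 10.54 in SCR and 9.75 in ADARkd (-0.78, or 58.1% of SCR), against 10.35 and 10.27 in K562 (-0.08). RPS25, a small-subunit protein that some viral messages need for initiation, stood at 11.20 and 10.66 (-0.54, just inside 1.5-fold), against 11.27 and 11.10 (-0.17). The ADARkd array labelled HepG2 was the lowest of the 4 for RPS24 and RPS25, and the other 3 arrays of each lay close together. RPS13, another small-subunit protein, stood at 5.22 and 4.55 (-0.67) there and at 5.12 and 5.63 in K562 (0.51). Its cluster is one of those away from the own gene, and 3 of its 4 values lie under the filter level, where background can set them.

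RPS4X stood at 4.57 in SCR and 5.67 in ADARkd (1.10, or 2.14-fold higher), against 5.57 and 5.79 in K562 (0.22). The SCR array labelled HepG2 was the 1 low value of the 4 and lay under the filter level, so the size is uncertain. RPL9, a large-subunit protein near the base of the stalk, stood at 6.70 and 7.38 (0.68), against 8.60 and 8.73 in K562 (0.14). RPS27L, a paralogue of RPS27 known as a p53 target, stood at 7.64 and 8.28 (0.64), against 6.87 and 6.67 in K562 (-0.19). RPL35A, whose gene is also mutated in Diamond-Blackfan anaemia, stood at 6.44 and 7.06 (0.61), against 7.93 and 7.83 in K562 (-0.09). RPL9 and RPL35A were higher in K562 than on either array labelled HepG2, and RPS27L was lower.

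The direction of all 8 members was the same after quantile normalization and cyclic loess, under which kept genes had a median of 0.01 and -0.00 in place of 0.11. Under them only RPS4X was still at least 1.5-fold higher, since RPL9 differed by 0.56 under each, RPL35A by 0.51 and 0.50 and RPS27L by 0.51 and 0.47. Of the 4 lower members, RPL28, RPL39L and RPS24 were past 1.5-fold under both, RPS13 stood at -0.58 and -0.62, and RPS25 was past it after loess at -0.61.

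The remaining 22 members ran from -0.54 to 0.46, 10 above 0 and 12 below. The median of all 30 was -0.05 (quartiles -0.39 and 0.38, SD 0.56), against 0.01 for all genes (-0.17 and 0.23, SD 0.41). Over the 20 kept members it was -0.07, against 0.11 for kept genes (-0.15 and 0.37, SD 0.47). The median depends on the clusters: it was 0.09 over the 25 members near their own gene. Large-subunit members had a median of -0.06 (8 higher, 10 lower) and small-subunit members of 0.05 (6 and 6). The 8 members with a mean over the 4 arrays of at least 9 were RPL4, RPL8, RPL11, RPL14, RPL18, RPS6, RPS24 and RPS25. Of these 6 were lower in ADARkd, beside 6950 of all 14232 genes and 2780 of 7116 kept genes. They were grouped after their values were seen, and RPL4 and RPL14 have clusters away from their own gene. RPL18 was the steadiest of them, at 11.33 and 11.29, and 11.28 and 11.32 in K562. RPL11, which binds MDM2, stood at 9.61 and 9.28 (-0.32), against 9.27 and 9.10 in K562 (-0.17), and both ADARkd arrays lay under the SCR array of their line.

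In K562 the spread was smaller. RPL35, a protein at the rim of the exit tunnel, was higher in ADARkd and RPL22, which also binds RNA hairpins outside the ribosome, was lower. The 2 made up 1 of 30 members in each direction at 1.5-fold (3.33% each), against 1.19% and 0.541% of all genes.

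RPL35 stood at 5.06 in SCR and 6.19 in ADARkd (1.13, or 2.19-fold higher) and passed the filter in K562 only through its ADARkd array. It stood at 4.25 and 4.70 on the arrays labelled HepG2 (0.46), so ADARkd was higher in both lines, but 3 of the 4 values lie under the filter level. RPL22 stood at 7.99 and 7.33 (-0.66, or 1.58-fold lower), ranked number 26 from the lowest, and at 7.70 and 7.98 on the other arrays (0.28). The K562 ADARkd array was the lowest of its 4. After quantile normalization or loess RPL22 differed by -0.56, just inside 1.5-fold.

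Among the rest, 17 were above 0 and 11 below, from -0.38 to 0.51. RPS6, the subunit that S6 kinase phosphorylates, stood at 8.85 in SCR and 9.32 in ADARkd in K562 (0.47), and RPS21, a small-subunit protein, at 6.09 and 6.55 (0.45). Both were chosen after their values were seen. On the arrays labelled HepG2 RPS6 differed by 0.22 (8.96 and 9.18) and RPS21 by -0.39 (5.40 and 5.00). RPL37A was the lowest of the rest at 6.19 and 5.81 (-0.38), and on the other arrays it stood at 6.13 and 5.67 (-0.46).

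The median of the 30 members in K562 was 0.09 (quartiles -0.09 and 0.30, SD 0.33), against 0.02 for all genes (-0.12 and 0.17, SD 0.23). Over the 25 members kept in K562 it was 0.04, against -0.07 for kept genes (-0.19 and 0.04, SD 0.19). Small-subunit members had a median of 0.26 (8 higher, 4 lower), large-subunit members one of 0.03 (10 and 8). No test of the subunits against each other was made, and 7 of the 30 members have K562 SCR values under the filter level. Among them are the small-subunit members RPS13 (0.51), RPS19 (0.30) and RPS29 (0.31), all on the higher side. RPS13 and RPS29 also have clusters away from their own gene, so the small-subunit median is uncertain.

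**Figure D2:**
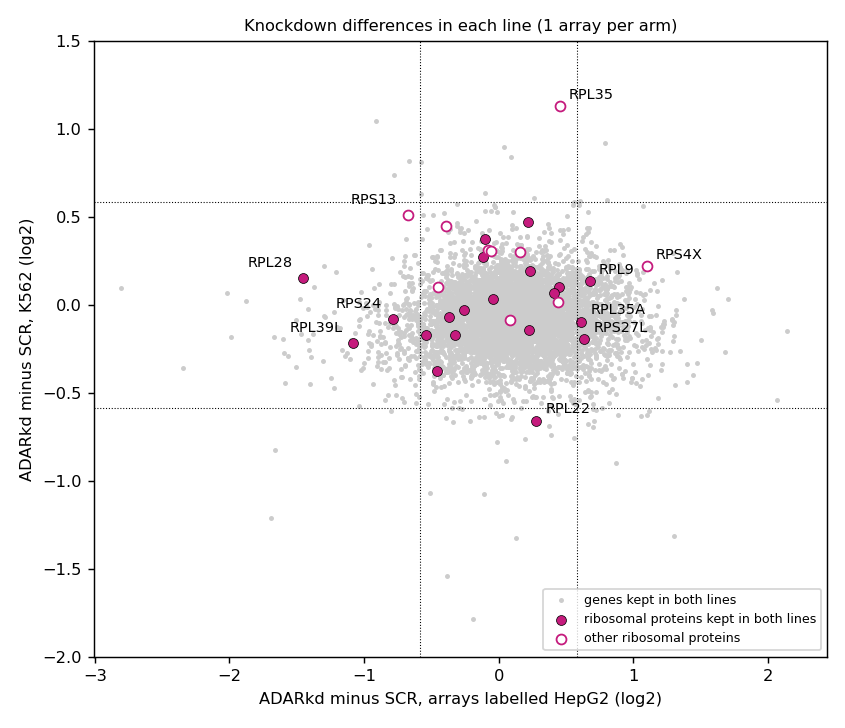
ADARkd minus SCR (log2) on the arrays labelled HepG2 (x axis) and in K562 (y axis), 1 point per gene, grey for genes kept in both lines and pink for the ribosomal proteins (filled if kept in both lines); dotted lines mark 1.5-fold. RPL28 lies at -1.45 and 0.15, RPL35 at 0.46 and 1.13 and RPL22 at 0.28 and -0.66, and no member passes 1.5-fold in both lines. The share of all genes that do was not computed.

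The lines were then set side by side. Of the 30 members, 16 had the same sign of difference in both lines (53.3%), 9 higher and 7 lower, against 46% of all genes. No member was at least 1.5-fold apart in both, and 20 were so in neither. The shares over all genes were not computed for these counts, so they are not read as a trait of the members. Across the 30 members, which share the arrays, the differences of the lines correlated at Pearson's r = 0.11 and Spearman's rho = 0.07. Over the 6204 genes kept in both lines the values were 0.03 and 0.04, while the 30 members include some under the filter. In the fit of a shared effect with line as a block (limma, two-sided, Benjamini-Hochberg over the genes kept in both lines), 0 of 20 members passed an adjusted p of 0.05, as did 0 of 6204 genes (0%). ADAR itself did not pass, with a shared difference of -1.45 ± 0.22 (SE; limma adjusted p = 0.871). The fit could not call even the targeted gene, so the 0 does not show that a shared effect is absent. At an unadjusted p under 0.05 there were 2 members, beside 179 genes (2.89%). These were RPL39L, with a shared difference of -0.65 ± 0.25 (SE) by limma, and RPS25, with -0.35 ± 0.15, each lower in ADARkd in both lines. Neither passed after adjustment, and the dimmer cluster of RPS25, away from its own gene, was higher in ADARkd in both lines (0.33 and 0.22).

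The lines were compared over both arms to describe the members' levels in each background. RPL9 was higher in K562 in both arms, and RPL35, RPL35A and RPS21 were higher as well, while RPS27L was lower. By limma with arm as a term and a bound of 2-fold, 4 of the 25 members kept in either line passed as higher in K562 (16%), beside 10.3% of 8028 genes, and 1 as lower (4%), beside 14.7%. Of these 5, RPL35 and RPS21 entered the test only through K562, the line where they were higher, so the share is a description. Without the fold bound 6 passed as higher (24%, against 19.5%) and 2 as lower (8%, against 22.5%). RPL6, 1 of these 6, also entered the test only through K562, where it was higher, so this share is a description as well. With 1 residual degree of freedom and no replicate arrays, these p-values lean on a spread shared over genes and are approximate.

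RPL9 was at 6.70 and 7.38 (SCR and ADARkd) on the arrays labelled HepG2 and at 8.60 and 8.73 in K562. It was higher in K562 by 1.63 ± 0.23 (SE, 2 arrays per line; limma adjusted p = 0.00122), or 3.09-fold, and by 1.90 between the SCR arrays and 1.36 between the ADARkd arrays. RPL9 was the 1 called member that was at least 2-fold apart in both arms.

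RPL35 was higher in K562 by 1.15 ± 0.25 (SE, 2 arrays per line; limma adjusted p = 0.00879), with its 4 values as given above, of which only that of K562 ADARkd is over the filter level. RPS21 was higher by 1.12 ± 0.25 (limma adjusted p = 0.0109), from 5.40 and 5.00 to 6.09 and 6.55, so its ADARkd value labelled HepG2 lies under the filter level too. With log2(value + 16) these 2 differed by 0.79 and 0.86, under the 2-fold bound, and a filter at the 75th percentile left both out of the test. RPL35 was at 0.98 after loess.

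RPL35A was higher in K562 by 1.13 ± 0.24 (SE, 2 arrays per line; limma adjusted p = 0.00866), 1.49 between the SCR arrays and 0.78 between the ADARkd arrays. RPS27L was lower by a difference of -1.19 ± 0.25 (limma adjusted p = 0.00877), -0.78 between the SCR arrays and -1.61 between the ADARkd arrays. For both genes the arrays of the lines did not overlap.

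Past the adjusted p but inside 2-fold were RPL6, a large-subunit protein, at 0.85 ± 0.21 (limma adjusted p = 0.0167), RPL36, also of the large subunit, at 0.73 ± 0.21 (0.0298), and RPL8 at -0.74 ± 0.16 (0.0100). RPL8, which reaches toward the peptidyl transferase centre, stood at 10.64 and 10.38 on the arrays labelled HepG2 and at 9.78 and 9.76 in K562, so the lines did not overlap. RPL6 stood at 5.06 and 5.50 and at 6.13 and 6.14, and RPL36 at 6.59 and 7.04 and at 7.49 and 7.59. The remaining 3 of the lowest 5 differences were those of RPL11 (-0.26), RPL14 (-0.20) and RPL22 (-0.18), which did not pass.

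The 17 tested members that did not pass ran from -0.26 to 0.59. RPS14, a small-subunit protein whose loss contributes to the anaemia of the 5q deletion, was the nearest, at 0.59 ± 0.21 (limma adjusted p = 0.0553). RPL28 had a line difference of 0.01 ± 0.36, but of -0.80 between the SCR arrays and 0.81 between the ADARkd arrays. In all, 9 of the 30 members had opposite signs in the 2 arms, some with differences near 0, such as RPL18 at -0.05 and 0.03. The share over all genes was not computed, so the count is not read as a trait of the members. The SD of the line differences was 0.62 over the 25 kept members and 1.25 over the 8028 genes kept in either line. Of all 30 members, 16 had arrays that did not overlap between the lines (53.3%), against 75.8% of all genes: 13 with K562 above (43.3%, against 50.8%) and 3 with K562 below (10%, against 25%). These shares were not tested.

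**Figure D3:**
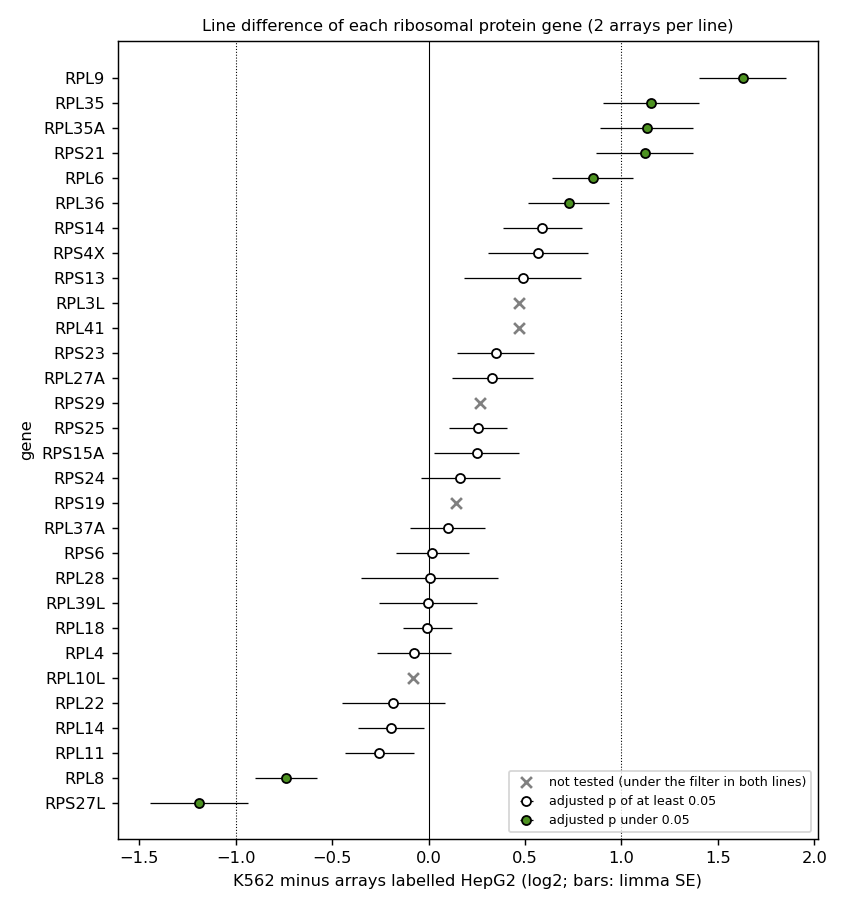
K562 minus arrays labelled HepG2 (log2, x axis) for each ribosomal protein gene (y axis), with bars for limma's SE over 2 arrays per line, filled circles for an adjusted p under 0.05 and crosses for the 5 members under the filter in both lines. RPL9 leads at 1.63, RPS27L is lowest at -1.19, and 8 members are filled.

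The 5 members kept in neither line were RPL3L, the muscle paralogue of RPL3, RPL10L, the testis paralogue of RPL10, and RPL41, RPS19 and RPS29, of which the last is a small-subunit protein that binds zinc. RPL10L stood at 4.71 and 4.79 on the arrays labelled HepG2 and at 4.71 and 4.63 in K562, RPL3L at 4.51 and 4.44 and at 4.79 and 5.10. RPS19, the gene most often mutated in Diamond-Blackfan anaemia, stood at 3.81 and 3.97 and at 3.88 and 4.18. RPL41, the shortest of these proteins, stood at 3.49 and 3.04 and at 3.68 and 3.79, and RPS29 at 3.51 and 3.45 and at 3.59 and 3.89. Background can set such values, so no level is read from them. In each measured paralogue pair on the lists only 1 side had a value: RPL22, RPL3L, RPL10L, RPL39L and RPS27L.

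Of 21 Diamond-Blackfan anaemia genes on a list, 9 were members with values. Their median difference was -0.04 on the arrays labelled HepG2 (-0.78 for RPS24 to 0.68 for RPL9) and 0.14 in K562 (-0.17 for RPL11 to 1.13 for RPL35). Over those kept by the filter in each line the medians were -0.07 over 6 and 0.04 over 7, so the K562 value leans on members under the filter. In the line comparison 3 of the 7 tested passed as higher in K562, RPL9, RPL35 and RPL35A, and 0 as lower, beside 10.3% and 14.7% of all genes tested. RPL35 was among the members kept only through K562.

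Other genes of the pathway were read from lists. On the arrays labelled HepG2, mitochondrial ribosomal proteins, which build the separate ribosome of that organelle, had a median of 0.41 over 61 kept genes, with 16 at least 1.5-fold higher in ADARkd and 0 lower, beside a median of 0.11 and shares of 12.4% and 5.73% over all kept genes. MRPL22, of its large subunit, stood at 5.82 in SCR and 6.95 in ADARkd (1.13). The median stood at 0.30 after quantile normalization and at 0.29 after loess, with 12 and 11 genes past 1.5-fold. The kept cytosolic ribosomal proteins had a median of -0.07 over 20.

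Ribosome biogenesis factors, which process ribosomal RNA and assemble the subunits, had a median of 0.36 over 52 kept genes, with 13 at least 1.5-fold higher and 0 lower (0.22 and 7 after either scaling). UTP20, of the small-subunit processome, stood at 5.54 and 6.65 (1.11) and LTV1, which binds RPS3, at 6.16 and 7.18 (1.03). Chaperones that escort single ribosomal proteins had a median of 0.56 over 11, with 5 higher and 1 lower (3 and 1 after either scaling). TSR2, the escort of RPS26, was the highest, at 6.01 in SCR and 7.51 in ADARkd, and NAP1L1 was the lower one, at 8.56 and 7.82 (-0.74). The chaperone list shares 3 genes with the biogenesis list.

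Translation factors and other messages with TOP tracts had a median of -0.02 over 15 kept genes, with 0 higher and 2 lower as deposited. After quantile normalization and loess it stood at -0.12 and -0.14 with 3 lower in each. The lower genes as deposited were NACA, a subunit of the complex that meets nascent chains at the exit tunnel, at 7.59 and 6.19 (-1.39), and NAP1L1, which is on both lists. RNA polymerase I genes had a median of 0.15 over 9, with 0 past 1.5-fold (0.07 after either scaling). Regulators around mTORC1, LARP1 and MYC had 0.04 over 13 (-0.07 and -0.08 after quantile normalization and loess), with RPS6KB2, a kinase of RPS6, at 0.60 (inside 1.5-fold after either scaling) and the MYC paralogue MYCN at -0.66.

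In K562 these medians were -0.01 for mitochondrial ribosomal proteins over 62, 0.02 for biogenesis factors over 53, 0.01 for chaperones over 11 and 0.01 for translation factors over 15, with 0 genes of any of them past 1.5-fold as deposited, beside 0.267% higher and 0.759% lower over all kept genes. After either scaling 1 translation factor was past it. MYCN was the 1 regulator past it, at 6.96 in SCR and 7.78 in ADARkd (0.82). In the line comparison 10 of 53 biogenesis factors passed as higher in K562 and 0 as lower, beside 10.3% and 14.7% of all genes tested. MDN1, an ATPase of large-subunit assembly, was the highest of these at 1.43. Mitochondrial ribosomal proteins split 5 against 3 of 62, and translation factors 0 against 0 of 15. The lists were described and not tested against each other.

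**Figure D4:**
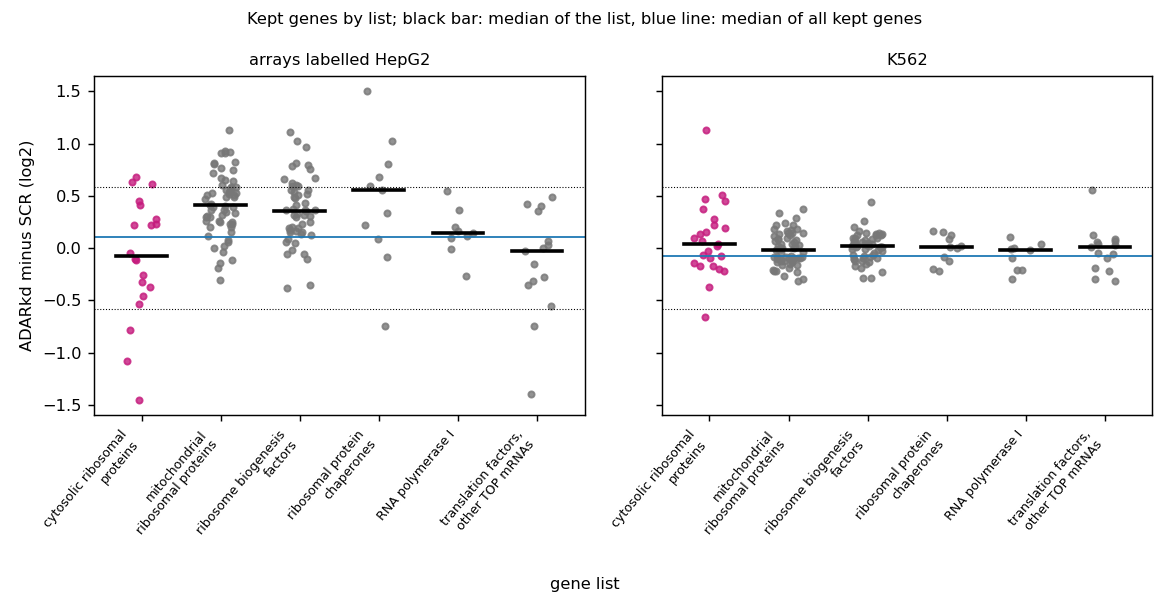
ADARkd minus SCR (log2, y axis) of kept genes in 6 lists (x axis) on the arrays labelled HepG2 (left) and in K562 (right), 1 point per gene, with a black bar at each list's median, a blue line at the median of all kept genes (0.11 and -0.07) and dotted lines at 1.5-fold. The cytosolic ribosomal proteins spread from -1.45 to 0.68 on the left, where the mitochondrial ones have their median at 0.41.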

How the data were processed

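Gene expression was measured on 4 Affymetrix exon arrays, 1 per line and arm. The deposited table holds an intensity on a linear scale per transcript cluster; the submitters' processing notes name RMA and hg18 without versions, and later steps are not given in the sources used here. Of 17881 clusters 14432 had 1 symbol, 2408 several and 1041 none, and only single symbols were named. Symbols were checked by Entrez number against RefSeq (GRCh38.p14), and 0 changed. The planned design had assumed log2 values, so log2 of the intensity was taken with no offset. Genes were filtered per line at the median of all genes' means. Line and arm effects were tested on all kept genes with lmFit and eBayes (trend on) of limma 3.58.1, run in R 4.3.3, after a check of the script on simulated data. Named members had a knockdown difference of at least 1.5-fold, one of the 5 highest or lowest line differences, or a paralogue pair; others were chosen after their values were seen. Up to 3 genes of each list with large differences were named. The members and lists were chosen with earlier results of these data known. The alternatives were quantile normalization, loess, an offset of 16, other filters, the mean of a gene's clusters, and subsets of members. The number of arrays limits precision. Figures were drawn with matplotlib 3.10.9.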

Additional observations from a re-analysis of the deposited data

Results flagged for a closer look

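For 5 members the knockdown difference was at least 1.5-fold in 1 line and had the opposite sign in the other. The share of all genes that do so was not computed. Only 46% of all genes had the same sign in both lines, so the count is not read as a trait of the members. The difference between the lines' differences (labelled HepG2 minus K562, log2) was -1.60 for RPL28, -1.19 for RPS13, 0.94 for RPL22, 0.83 for RPS27L and 0.71 for RPL35A. After quantile normalization RPL28 was the only one of the 5 still at least 1.5-fold apart in a line (-1.61), and RPL35A in K562 turned from -0.09 to 0.01. With 1 array per line and arm it was not tested, and of these 5 the cluster of RPS13 is the one away from its own gene.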

How the results depend on the processing

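The median knockdown difference of the members on the arrays labelled HepG2 turned from -0.05 to 0.086 over the 25 members with clusters near their own gene, an alternative chosen after seeing the data. Members at least 1.5-fold higher there, 4 as deposited, numbered 1 after quantile normalization, 1 after loess and 2 with a stricter filter (75th percentile), which also left 2 lower. In K562 the 1 lower member numbered 0 after quantile normalization and after loess, and the 1 higher member 0 with the stricter filter, and 2 with the clusters that carry small nucleolar RNA symbols added (also chosen after seeing the data). The 4 members called higher in K562 than on the arrays labelled HepG2 numbered 2 with log2(value + 16) and 2 with the stricter filter, and the 1 called lower became 2 with no fold bound. By fold alone, 0 members were 2-fold lower in K562 between the SCR arrays, against 1 over both arms. The shared effect called 0 members under all 8 alternatives run. As deposited, the fit did not call ADAR either, so these counts do not show that a shared effect is absent. The shared fit pairs the arms within each line, with line as a block; the labels give no replicate numbers to pair by.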

Other observations

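Ribosomal protein genes often carry small nucleolar RNAs in their introns, and 7 clusters paired a ribosomal protein symbol with such symbols alone. They were left out of the members because several genes share each cluster. On the arrays labelled HepG2 their ADARkd minus SCR differences ran from -0.94 to 0.49 with a median of -0.21, 2 above 0 and 5 below. In K562 they ran from -0.31 to 0.84 with a median of 0.06, 5 above 0 and 2 below. Their K562 minus HepG2 differences ran from -0.43 to 0.50.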
